A study of Mus musculus with 2 samples.

Results

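The genes examined were the 10 genes that encode the enzymes and the enhancer of collagen maturation in skin, taken from the 24421 gene symbols counted in the RNA-seq. They were chosen by function: the prolyl 4-hydroxylase alpha subunits *P4ha1*, *P4ha2* and *P4ha3*, the lysyl hydroxylases *Plod1*, *Plod2* and *Plod3*, the procollagen C-endopeptidase enhancer *Pcolce*, and the lysyl oxidases *Lox*, *Loxl1* and *Loxl2*. All 10 had more than 3 counts in each library. RNA came from whole-layer back skin of wild type C57BL6/J mice. A library of skin stretched for 5 days from an initial strain of 33%, which per the methods was raised each day to offset growth, was compared with a library of skin left unstretched until the same day, and the methods describe female mice of 8 weeks whose hair follicles rested in telogen. There was 1 library per condition, so no difference has a replicate check and no p-value is given. The number of mice behind each library is not given in the sources used here.

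Collagen chains are modified, trimmed and tied together in steps that need dedicated enzymes. In the endoplasmic reticulum, prolyl 4-hydroxylases hydroxylate proline, which stabilizes the collagen helix at body temperature, and lysyl hydroxylases hydroxylate lysine, which sets the chemistry of later cross-links. After secretion, proteinases cut off the propeptides so that fibrils can form, and *Pcolce* speeds the cut at the C-terminal end. Lysyl oxidases are copper enzymes that oxidize lysine and hydroxylysine in collagen and elastin, and the resulting aldehydes form the covalent cross-links that give the dermis its tensile strength.

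The control library held 14152379 counts and the stretched library 11648655. Scaled by the library total (CPM), 3 counts equal 0.212 in the control and 0.258 in the stretched library. Ratios are CPM of stretched skin over control skin with the exact 95% Clopper-Pearson interval, which covers counting error only and compares these libraries. With this scaling the median log2 ratio of the 16255 genes above the floor of 3 counts in at least 1 library was -0.12, and other scalings would shift every log2 ratio by between -0.03 and 0.11. Of those genes, the interval lay wholly above 0 for 18.1% and wholly below 0 for 33.5%.

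All 10 enzyme genes were higher in stretched skin, and for all 10 the interval lay wholly above 0. The median log2 ratio of the genes was 0.64, a fold of 1.55, against the median of -0.12 for all genes. Every gene also lay above 0.19, the upper quartile of the log2 ratios of all genes. They differed widely among themselves, from a fold of 1.26 for *P4ha1* to a fold of 13.7 for *P4ha3*. Summed over the 10 genes, the level was 1209 CPM in the control library against 2364 in the stretched one, and the part of *Lox* in that sum was 17.0% and 31.7%. A gene was called higher where the product of its FPKM values, each with 1 added (EV), was above 10 and the fold at least 2, a rule adapted from the methods, which state no added 1. Among the 9 enzyme genes past the filter, *Lox* was the 1 called. Of all 10908 genes past the filter, 2.61% were called higher. *P4ha3* did not pass the filter, since its EV was 8.10. With nothing added, 8 enzyme genes passed and *Lox* was again the 1 called. A CPM ratio of at least 2 was reached by *Lox* and *P4ha3*, and by 6.32% of all genes above the floor.

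**Figure D1:**
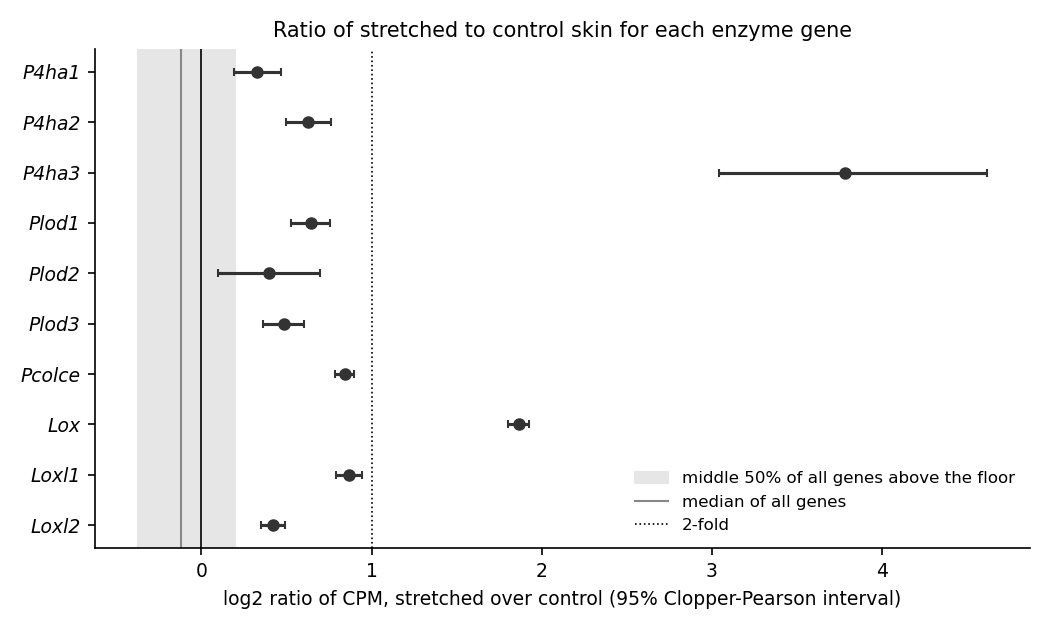
Each point is the log2 ratio of CPM in stretched skin over control skin (x axis) of a gene (y axis), with its 95% Clopper-Pearson interval as the bar; the grey band is the middle 50% of all genes above the floor, from -0.38 to 0.19, the grey line is their median of -0.12, and the dotted line is a 2-fold ratio. All 10 points lie to the right of the band, and *P4ha3* (3.78) and *Lox* (1.86) lie past the dotted line.

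The order of the levels per length was measured as FPKM from the union of each gene's exons. In control skin *Pcolce* was highest at 83.4 FPKM (Poisson interval 80.9 to 85.8), followed by *Loxl1* at 53.0, *Lox* at 43.1 and *Loxl2* at 41.7. The level of *Lox* was 1.03 times that of *Loxl2*, with a Clopper-Pearson interval of 0.983 to 1.09 that holds 1, so the counts did not separate these neighbours. The hydroxylases were lower, with *Plod3* at 16.2, *P4ha1* at 14.7, *Plod1* at 11.5, *P4ha2* at 9.46, *Plod2* at 2.37 and *P4ha3* at 0.361 FPKM. In stretched skin *Lox* reached 157 FPKM (153.6 to 160.2), above *Pcolce* at 149 (145.8 to 153.0), and *P4ha3* at 4.96 (4.26 to 5.73) stood above *Plod2* at 3.12 (2.70 to 3.59). *Loxl1* at 96.6, *Loxl2* at 55.7 and *Plod3* at 22.7 followed *Pcolce*, and the level of *P4ha1* at 18.5 was 1.03 times that of *Plod1* at 18.0 (0.944 to 1.12), which were not separated. The place of *Pcolce* depended on the length, since with the longest transcript as length it was at 222 FPKM in stretched skin against 158 for *Lox*. With that length *P4ha2* (19.3) and *Plod1* (19.0) stood above *P4ha1* (14.98) in control skin. In stretched skin *P4ha2* (29.8) and *Plod1* (29.7) also stood above *P4ha1* (18.8). The closeness of *P4ha1* and *Plod1* in stretched skin therefore holds for the exon union only.

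**Figure D2:**
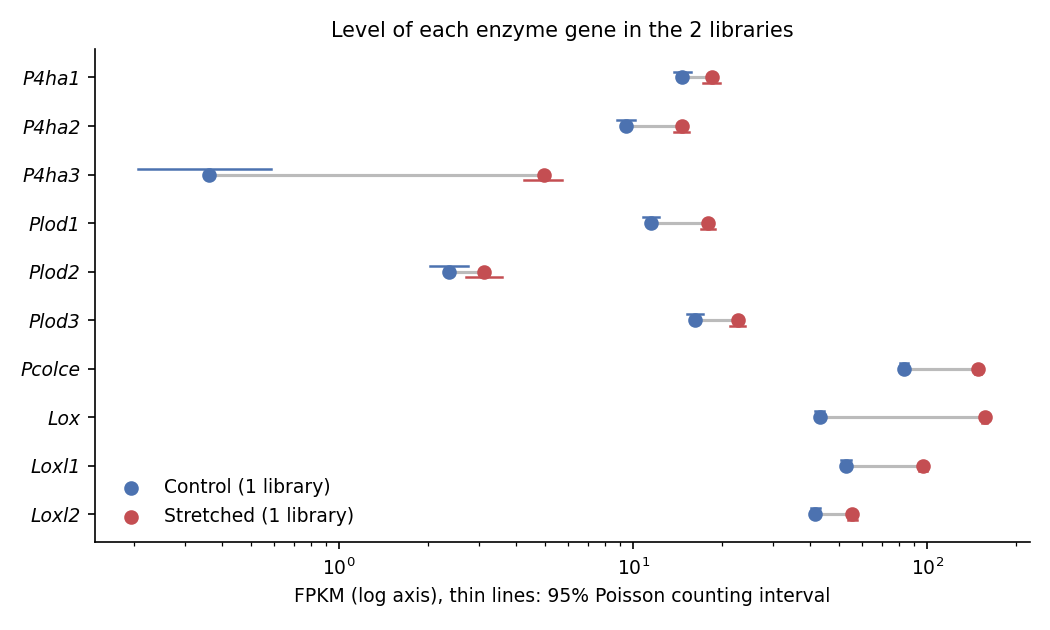
The level of each gene (y axis) is shown in FPKM on a log axis (x axis), in blue for the control library and in red for the stretched library, with 95% Poisson counting intervals as thin lines. The red point lies to the right of the blue point for all 10 genes, and the longest connecting lines are those of *P4ha3*, from 0.361 to 4.96, and *Lox*, from 43.1 to 157.

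Among the prolyl 4-hydroxylases, *P4ha3* had the highest fold between the libraries. Each alpha subunit carries the catalytic site and works in a tetramer with the protein disulfide isomerase encoded by *P4hb*. *P4ha3* lies on chromosome 7 of GRCm38 (mm10) from 100285520 to 100319699. Control skin gave 16 counts of it and stretched skin 181, or 1.13 and 15.5 CPM. The fold was 13.7 (interval 8.24 to 24.6), with only 19 of the 16255 genes above it. *P4ha1*, on chromosome 10 from 59323296 to 59373304, had 857 and 886 counts in the control and the stretched library, or 60.6 and 76.1 CPM. Scaled for depth the fold was 1.26 (1.14 to 1.38). *P4ha2*, on chromosome 11 from 54100095 to 54131665, had 835 and 1062 counts (59.0 and 91.2 CPM), a fold of 1.55 (1.41 to 1.69). None of these 3 genes shares a stretch of 76 bases, the read length, with a transcript of another gene.

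The ratio of 2 genes within the same libraries does not depend on the scaling. The fold of *P4ha3* was 10.9 times that of *P4ha1* (exact conditional 95% interval 6.48 to 19.7) and 8.89 times that of *P4ha2* (5.27 to 16.01). The fold of *P4ha2* was 1.23 times that of *P4ha1* (1.08 to 1.40). Of the reads counted on the 3 genes, *P4ha3* took 0.937% in the control library (Clopper-Pearson interval 0.536% to 1.52%) against 8.50% in the stretched one (7.35% to 9.77%). Per length its share of the summed FPKM went from 1.47% to 13.0%, while *P4ha1* went from 60.0% to 48.6% and *P4ha2* held 38.5% and 38.4%. The order of *P4ha1* and *P4ha2* depended on the length, since with the longest transcript *P4ha2* held 55.5% and 54.1% against 43.1% and 34.2% for *P4ha1*. *P4ha3* thus remained the least abundant of the 3 subunits in stretched skin. The summed FPKM of the subunits was 24.5 for the control and 38.1 for the stretched library. *P4hb*, named here for its role after its value was seen, had 8976 and 8574 counts, a log2 ratio of 0.21 (0.17 to 0.26).

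The promoters of the 3 subunits are shown because these paralogs differed so widely in their ratios. Each sequence comes from the 250 bases before the start used in the RefSeq promoter entry on GRCm38.p6. It is the longest stretch with no annotated exon of the gene and no base from the RefSeq gene start on. The cut at the gene start ends the stretch 100 bases before the start of the entry for *P4ha1* and 32 before it for *P4ha3*. For *P4ha2* the start of the entry lies inside the span of the gene given above. The stretch printed is chr7:100285270-100285488 for *P4ha3*, chr10:59323046-59323196 for *P4ha1* and chr11:54100674-54100923 for *P4ha2*, all on the plus strand. Capitals mark the GC box GGGCGG and the core of the hypoxia response element, ACGTG or GCGTG, on either strand.
P4ha3: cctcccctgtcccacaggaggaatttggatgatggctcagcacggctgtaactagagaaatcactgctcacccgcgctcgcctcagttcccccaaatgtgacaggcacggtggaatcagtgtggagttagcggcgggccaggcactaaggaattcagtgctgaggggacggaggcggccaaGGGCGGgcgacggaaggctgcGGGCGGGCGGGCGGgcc
P4ha1: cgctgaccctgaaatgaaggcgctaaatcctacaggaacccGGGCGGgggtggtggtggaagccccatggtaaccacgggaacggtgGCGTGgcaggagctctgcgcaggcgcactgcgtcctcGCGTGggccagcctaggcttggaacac
P4ha2: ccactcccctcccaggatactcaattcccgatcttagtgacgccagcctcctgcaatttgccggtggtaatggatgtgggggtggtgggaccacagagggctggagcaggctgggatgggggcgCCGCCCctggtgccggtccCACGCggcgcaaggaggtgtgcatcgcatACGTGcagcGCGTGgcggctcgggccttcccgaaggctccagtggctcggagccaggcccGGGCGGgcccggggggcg

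In the window of 250 bases before the start of the entry, all 3 promoters hold GGGCGG, as do 32.7% of 32851 mouse promoters. ACGTG and GCGTG occur in the windows of *P4ha1* and *P4ha2* and not in that of *P4ha3*, and they occur in 16.6% and 28.2% of all promoters. The ACGTG of *P4ha1* is not wholly in the stretch printed, so at least part of it lies at or after the RefSeq gene start. Among the 6 enzyme genes with a promoter entry, which are these 3 with *Plod1*, *Plod3* and *Pcolce*, GCGTG was found in 5 and ACGTG in 3. None of the 6 windows holds GGAATG (the TEAD motif, in 12.6% of all promoters), TGANTCA (the AP-1 motif, in 6.75%) or a CArG box (in 1.47%), and TATAAA was found in that of *Plod1* (in 12.4% of all promoters). The GC content of the windows ranged from 55.6% for *Plod3* to 70.0% for *P4ha2*. A match of letters is a description and not a binding site.

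The lysyl hydroxylases were higher by folds between 1.32 and 1.56, and the counts did not separate them from each other. *Plod1*, which hydroxylates lysine in the helical part of collagen, lies on chromosome 4 from 147909753 to 147936767. It had 1102 and 1417 counts in the control and the stretched library (77.9 and 121.6 CPM), a fold of 1.56 (1.44 to 1.69). *Plod2*, which hydroxylates the telopeptide lysines that lead to the stable pyridinoline cross-links of stiff and scarred tissue, had 181 and 196 counts (12.8 and 16.8 CPM), a fold of 1.32 (1.07 to 1.62). *Plod3*, which also glycosylates hydroxylysine, had 1037 and 1193 counts (73.3 and 102.4 CPM), a fold of 1.40 (1.29 to 1.52). The intervals of the ratios between the folds all held 1, with 1.12 (0.995 to 1.26) for *Plod1* against *Plod3*, 1.19 (0.950 to 1.48) for *Plod1* against *Plod2*, and 1.06 (0.848 to 1.33) for *Plod3* against *Plod2*. The interval leaves room for a fold of *Plod1* up to 1.48 times that of *Plod2*. *Plod2* lies on chromosome 9 from 92542223 to 92608428 and *Plod3* on chromosome 5 from 136987019 to 136996648. *Plod2* was the scarcest member in both libraries, with 7.88% and 7.13% of the summed FPKM of the family. *Plod3* shares 8.001% of its 76-base stretches with the neighbouring *Znhit1* and *Plod2* shares 5.04% with *Gm38391*, so a few of their reads are uncertain.

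*Pcolce* was the second most abundant of the 10 genes in stretched skin by the exon union. This secreted glycoprotein has no proteinase activity and binds the C-propeptide of procollagen. It lies on chromosome 5 from 137605103 to 137613784 and gave 4510 control and 6651 stretched counts, or 319 and 571 CPM. The fold was 1.79 (1.72 to 1.86). The proteinases of propeptide removal were not all higher with it. Of the 9 listed genes, 6 were above the floor, with 2 intervals above 0, 1 below 0 and a median log2 ratio of 0.16. *Adamts2*, the main N-propeptide proteinase of skin, was the 1 gene called, with 3007 and 5326 counts and a log2 ratio of 1.11 (1.04 to 1.17). *Bmp1*, the C-propeptide proteinase that *Pcolce* enhances, and the paralog *Pcolce2* were named after their values were seen. *Bmp1* had 2963 and 3018 counts (0.31, interval 0.23 to 0.38) and *Pcolce2* had 999 and 796 counts (-0.05, interval -0.18 to 0.09). *Mep1a*, *Mep1b* and *Tll2* were at or under 3 counts in both libraries.

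*Lox* stood apart from the other lysyl oxidases. It is the founding member of the family and acts on fibrillar collagen and on tropoelastin. It gave 2914 control and 8730 stretched counts, or 206 and 749 CPM. The fold was 3.64 (3.49 to 3.80), and 264 genes, 1.62% of those above the floor, had a higher one. *Loxl1*, on chromosome 9 from 58287738 to 58313186, is needed for elastic fibre upkeep and had 2472 and 3711 counts (175 and 319 CPM), a fold of 1.82 (1.73 to 1.92). *Loxl2*, on chromosome 14 from 69609068 to 69695834, cross-links collagen IV of basement membranes and had 3187 and 3507 counts (225 and 301 CPM), a fold of 1.34 (1.27 to 1.40). *Loxl2* shares 43.6% of its 76-base stretches with the predicted gene *Gm21451*, which has no row in the table, so its level is uncertain.

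The remaining family members *Loxl3* and *Loxl4* were added to the comparison after their values were seen, as the other members of the family. *Loxl3* had 292 and 433 counts (log2 ratio 0.85, interval 0.63 to 1.07) and *Loxl4* had 525 and 820 counts (0.92, interval 0.76 to 1.09). The fold of *Lox* was 1.996 times that of *Loxl1* (1.87 to 2.13), 2.72 times that of *Loxl2* (2.55 to 2.90), 2.02 times that of *Loxl3* (1.73 to 2.36) and 1.92 times that of *Loxl4* (1.70 to 2.16). The fold of *Loxl1* was 1.01 times that of *Loxl3* (0.862 to 1.19) and 0.961 times that of *Loxl4* (0.850 to 1.09), so these were not separated, whereas the fold of *Loxl2* was 0.733 times that of *Loxl1* (0.683 to 0.787). Per length, *Lox* held 28.5% of the summed FPKM of the family in control skin, behind *Loxl1* with 35.1%, and 47.0% in stretched skin, ahead of *Loxl1* with 28.9%. *Loxl2* went from 27.6% to 16.7%. The summed FPKM of the 5 lysyl oxidases was 151 for the control and 334 for the stretched library, a fold of 2.21, against 1.55 for the prolyl hydroxylase subunits and 1.45 for the lysyl hydroxylases.

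**Figure D3:**
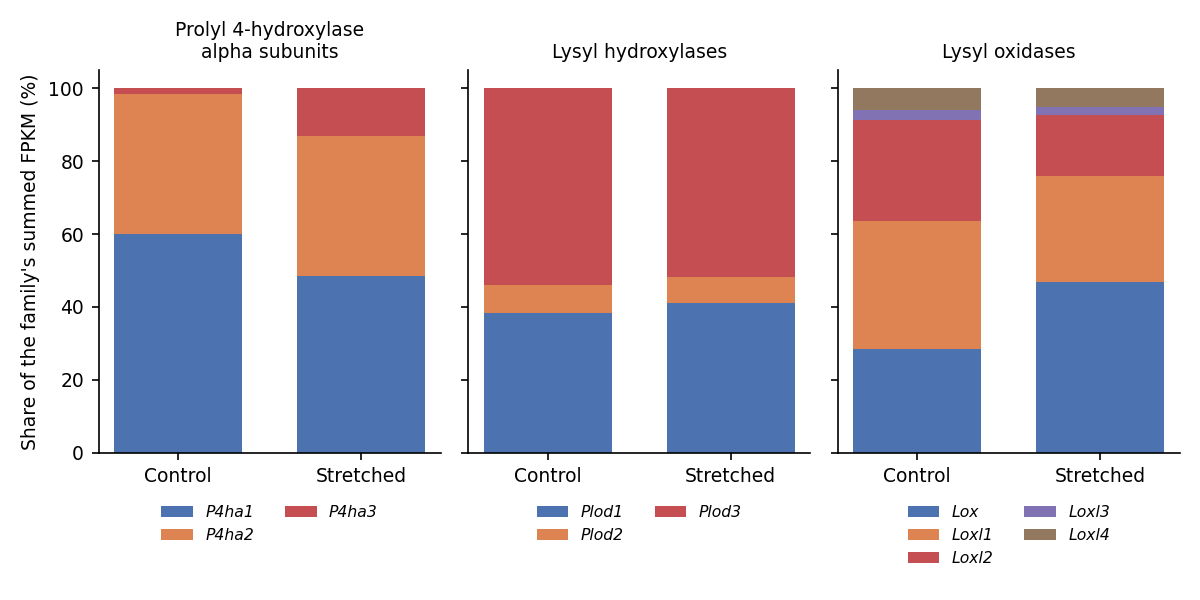
Stacked bars give the share of each gene in the summed FPKM of its family (y axis, percent) in the control and the stretched library (x axis). *P4ha3* goes from 1.47% to 13.0% and *Lox* from 28.5% to 47.0%, while the 3 lysyl hydroxylases keep shares within 3 percentage points of those in control skin.

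The enzymes were then set against the collagen chains they act on. *Col1a1*, *Col1a2* and *Col3a1* together had 551170 control and 872802 stretched counts, or 38945 and 74927 CPM, a fold of 1.92 (1.92 to 1.93). *Lox* had 5.29 counts per 1000 counts of these chains in the control and 10.002 in the stretched library, so its fold was 1.89 times that of the collagen chains (1.81 to 1.97). *P4ha3* was 7.14 times the fold of the chains (4.28 to 12.8). The other 8 genes had folds below that of the chains, with all 8 intervals under 1. They ranged from 0.653 times for *P4ha1* (0.594 to 0.718) and 0.684 times for *Plod2* (0.556 to 0.842) to 0.931 times for *Pcolce* (0.896 to 0.968) and 0.948 times for *Loxl1* (0.901 to 0.998). *P4ha1* went from 1.55 to 1.02 counts per 1000 collagen counts. Against all 9 fibrillar chains, the interval of *Loxl1* held 1 (0.957, interval 0.909 to 1.01), and 2 genes lay above and 7 below.

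Collagen enzymes in skin are made mainly by fibroblasts, and in bulk tissue fewer cells of a type and less RNA per cell cannot be told apart. All 9 fibroblast markers were higher in stretched skin with intervals above 0, and their summed level was 3879 CPM in the control and 5628 CPM in the stretched library, a fold of 1.45 (1.43 to 1.47). The markers were uneven, from a log2 ratio of 0.06 for *Dcn* to 1.18 for *Vim*, and *Pi16* and *Vim* were called. Against the summed markers, *P4ha3* (9.47 times, interval 5.68 to 16.9), *Lox* (2.51 times, 2.40 to 2.62), *Loxl1* (1.26 times, 1.19 to 1.32) and *Pcolce* (1.23 times, 1.19 to 1.28) had higher folds. *P4ha1* (0.866 times, 0.787 to 0.953) and *Loxl2* (0.921 times, 0.877 to 0.968) had lower ones, and the intervals of *P4ha2*, *Plod1*, *Plod2* and *Plod3* held 1. Both lower values depended on the choice of markers, and *Vim*, the highest of them, is also expressed by other cells. Without *Vim* the other 8 markers had a fold of 1.22 (1.21 to 1.24). Against them *Loxl2* was at 1.09 times (1.04 to 1.15) and *P4ha1* at 1.03 times (0.932 to 1.13). Then 8 enzyme genes had higher folds and none a lower one. *Dcn*, the marker with the lowest ratio, gave 21408 of the 42887 control and 18319 of the 43227 stretched counts of these 8. This reference thus leans on *Dcn*, and a sum without it was not computed.

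Markers of other cells in the skin also differed. All 6 macrophage markers had intervals above 0 (summed level 639 and 1496 CPM in control and stretched skin), and all 5 adipocyte markers had intervals below 0 (1189 and 753 CPM). The 6 smooth muscle and pericyte markers (1702 and 2622 CPM) had 4 intervals above 0 and 1 below. Most of that sum was *Des*, which skeletal muscle also expresses, and without it the sum was 617 and 671 CPM. The 7 skeletal muscle markers (26429 and 20266 CPM) had 2 above and 5 below. The 5 keratinocyte markers (14883 and 15494 CPM) and the 5 endothelial markers (181 and 228 CPM) also went both ways. The 5 cartilage and bone markers, cells that use the same enzymes, summed to 96.7 and 65.5 CPM with *Bglap* at 0. Of all these markers *Bglap* was the 1 gene at 0 in both libraries. The part of these cell types in the enzyme ratios was not tested.

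**Figure D4:**
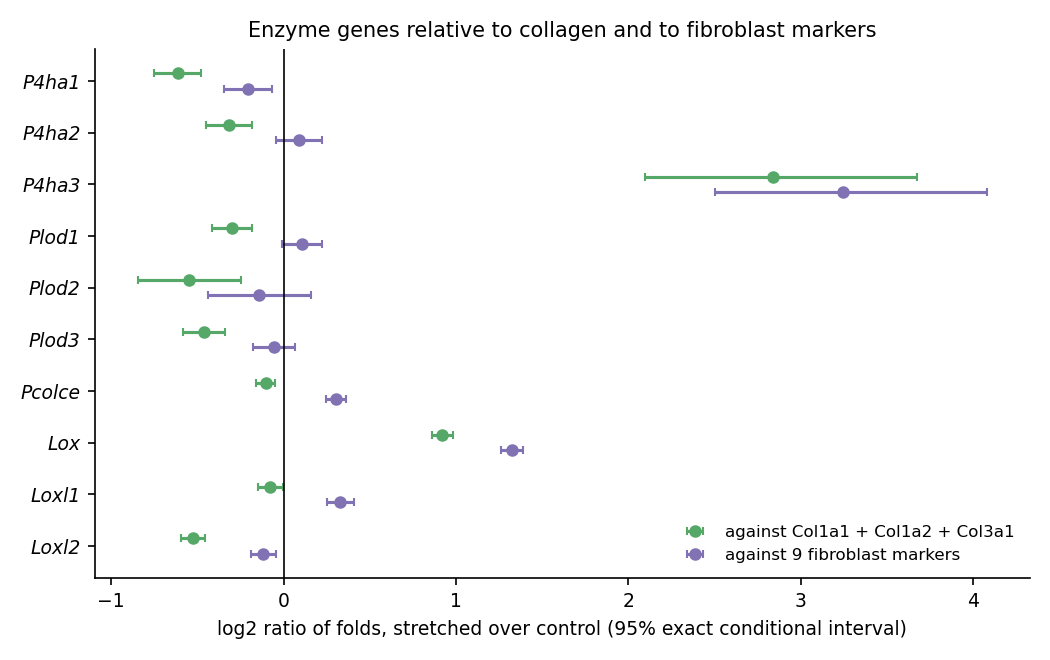
The fold of each gene (y axis) relative to the summed counts of *Col1a1*, *Col1a2* and *Col3a1* (green) or of the 9 fibroblast markers (purple) is given as a log2 ratio (x axis), with exact conditional 95% intervals as bars. *P4ha3* and *Lox* lie to the right of 0 on both scales, and the other 8 genes lie to the left of 0 in green.

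The median ratio of the other genes of collagen folding and export was below that of the enzyme genes, though the lists overlapped and their difference was not tested. Of the 17 listed genes 16 were above the floor, with 13 intervals above 0, none below and a median log2 ratio of 0.38, and none was called. Among those with at least 100 counts, the collagen chaperone *Fkbp10* was highest, with 1134 and 1654 counts (0.83, interval 0.72 to 0.94). The ion channel gene *Tmem38b* was lowest, with 561 and 489 counts (0.08, interval -0.10 to 0.26). *Serpinh1*, which encodes the collagen chaperone HSP47 and was named after its value was seen, had 12083 and 13348 counts (0.42, interval 0.39 to 0.46). *Mia2* was at the floor with 1 and 0 counts, and its older symbol *Ctage5* is a separate row with 1275 and 999 counts (-0.07, interval -0.19 to 0.05).

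The 8 genes of other lysyl oxidases and matrix proteins that lysyl oxidases act on or bind all had intervals above 0, with a median log2 ratio of 0.89. *Eln*, the elastin gene and the other main substrate of *Lox*, had 12949 and 36972 counts, a log2 ratio of 1.79 (1.77 to 1.82). The fold of *Lox* was 1.05 times that of *Eln* (1.001 to 1.10), a comparison added after the values were seen. *Lox* thus stood apart from the collagen chains but was close to *Eln*. The matricellular protein gene *Postn*, whose product aids the activation of lysyl oxidase, had 8261 and 15913 counts (1.23, interval 1.19 to 1.27). *Eln* and *Postn* were the 2 genes of this list called. *Efemp2*, named after its value was seen, had a log2 ratio of 1.02 in CPM and fell short of the call with 1 added to each FPKM.

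The 9 fibrillar collagen chains had 6 intervals above 0, 1 below and a median log2 ratio of 0.66. *Col1a1* had 168121 and 277385 counts (1.003, interval 0.99 to 1.01) and was called at the edge of the threshold. *Col11a1*, a minor chain of cartilage-type fibrils, had 1509 and 456 counts and was called lower (-1.45, interval -1.60 to -1.29). Genes called lower made up 2.43% of those past the filter.

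The genes that supply cofactors were not higher in stretched skin. The 6 genes of copper and ascorbate supply had no interval above 0 and 4 below, with a median log2 ratio of -0.34. Over all genes above the floor, 18.1% of intervals lay above 0 and 33.5% below, with a median of -0.12. A list of 6 genes is too short to set it apart from those shares. The copper pump gene *Atp7a*, which loads copper onto lysyl oxidases in the secretory pathway, was lowest with 736 and 378 counts (-0.68, interval -0.86 to -0.50). The copper chaperone gene *Atox1* was highest with 955 and 774 counts (-0.02, interval -0.16 to 0.12). Hypoxia is a known inducer of several of the enzymes, among them *P4ha1*, *Plod2* and *Lox*. The 12 hypoxia-responsive genes went both ways, with 3 intervals above 0, 7 below and a median of -0.29, and none was called. *Adm* (0.63, interval 0.17 to 1.09) and *Vegfa* (-0.63, interval -0.77 to -0.49) marked the ends of this list among genes with at least 100 counts. The part of hypoxia in the enzyme ratios was not tested.

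**Figure D5:**
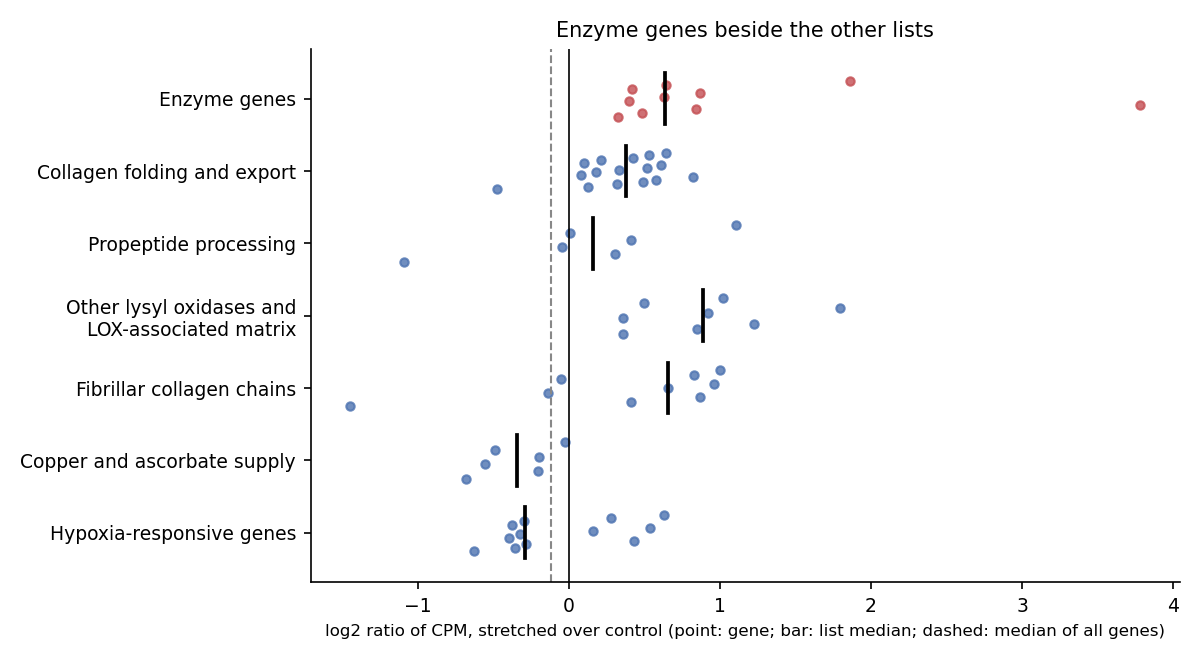
Each point is the log2 ratio of CPM in stretched skin over control skin (x axis) of a gene above the floor, for the 10 enzyme genes (red) and the 6 other lists (blue), with the vertical position inside a row set for legibility. Black bars are list medians, from 0.89 for the LOX-associated list to -0.34 for copper and ascorbate supply, and the dashed line is the median of all genes, -0.12.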

How the data were processed

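RNA-seq of whole-layer back skin was analysed in 1 control library and 1 library stretched for 5 days from an initial 33% strain. Per the methods, single-end reads of 76 bases were filtered with the FASTX-Toolkit (Phred 20, longer than 35 bases) and mapped to mm10 with TopHat2. The authors deposited the count of reads per gene symbol, without normalization. How strand and shared reads were handled, and by which counter, is not given in the sources used here, so genes that share sequence or overlap are uncertain.

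CPM used the total count of each library. FPKM used the exon union of GENCODE M21 (GRCm38), with a length found for 98.5% of the symbols. Counts of 3 or fewer were set to 3 for a ratio, and genes at or under 3 in both libraries got none. Calls used the thresholds of the methods (EV above 10, fold of at least 2 or at most 0.5) on other inputs. The study took FPKM from Cufflinks, whereas FPKM here came from the deposited counts, with 1 added to each value, a pseudocount the methods do not state. Intervals are exact 95% intervals (Clopper-Pearson for ratios, conditional for ratios of folds, Poisson for levels). PCR copies are not independent molecules, so they cover counting error only. Shared 76-base stretches were counted on the GENCODE transcripts. Promoters are from RefSeq, which matched 6 of the 10 genes. *Plod2*, *Lox*, *Loxl1* and *Loxl2* had no entry.

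The text names all 10 genes and, from each other list, the genes called, or where none was called the highest and lowest ratio among genes whose 2 counts sum to 100 or more. *Bmp1*, *Pcolce2*, *Mep1a*, *Mep1b*, *Tll2*, *Serpinh1*, *P4hb*, *Mia2*, *Efemp2*, *Loxl3*, *Loxl4* and, among the markers, *Dcn*, *Vim*, *Pi16*, *Des* and *Bglap* fall outside this rule and were named after their values were seen. The genes and lists were chosen with earlier results of these data known. Alternatives were upper quartile scaling and TMM of edgeR 4.0.16, the size factors (median of ratios) of DESeq2 1.42.0, totals without the 50 most counted genes or without keratin and muscle genes, other pseudocounts, filters and lengths, and correction in 20 bins of GC content or length. Calls and intervals were tested on simulated data. Python 3.11.15, numpy 2.4.6, pandas 2.3.3, scipy 1.17.1, matplotlib 3.10.9 and R 4.3.3 were used.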

Additional observations from a re-analysis of the deposited data

How the results depend on the processing

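All 10 intervals stayed above 0 with TMM, median of ratios, upper quartile, totals without the 50 most counted genes and totals without keratin and muscle genes. This had to be so, since these scalings add between -0.03 and 0.11 to every log2 ratio. The lowest bound of an interval was 0.097, for *Plod2*. With correction in bins of length the median log2 ratio of the enzyme genes was 0.79. The median of collagen folding and export was 0.48 with TMM, 0.49 with median of ratios and 0.48 with upper quartile, which add about the same amount to every ratio. Without the EV filter, with CPM in place of FPKM, or with the longest transcript as length, 2 enzyme genes were called, *Lox* and *P4ha3*, since *P4ha3* then passed the filter. In the other calls *Lox* alone was called. The share of *P4ha3* in its family in stretched skin was 8.50% of counts and 11.7% with the longest transcript, a length chosen after seeing the data, and that of *Lox* was 50.8% of counts. Against fibroblast markers in place of collagen, 4 enzyme genes had higher folds and 2 lower. The log2 ratio then changed sign for *P4ha2* (0.091), *Plod1* (0.11), *Pcolce* (0.30) and *Loxl1* (0.33), with the intervals of *P4ha2* and *Plod1* holding 0, because the markers differed less between the libraries than collagen did. Without *Vim* in the markers, a choice made after seeing the data, 8 enzyme genes had higher folds and 0 lower, and the log2 ratio changed sign against the collagen reference for *P4ha1* (0.037), *P4ha2* (0.34), *Plod1* (0.35), *Plod2* (0.10), *Plod3* (0.19), *Pcolce* (0.55), *Loxl1* (0.57) and *Loxl2* (0.13). No paired analysis was possible because each condition has a single library, which also means that none could be dropped. Depth limits *P4ha3* and *Plod2* most.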
